A study of Mus musculus with 9 samples.

Results

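The 46 genes described here build the machinery that copies nuclear DNA: they license and fire replication origins, unwind the helix, synthesise and seal the new strands, or supply deoxynucleotides. Members were taken by symbol, from probe sets annotated to that symbol alone, and a gene with several probe sets was represented by the one with the highest mean over the 9 arrays. Of the 46 genes, 45 were measured among 18193 genes on the array, and Chaf1a was not analysed here. By role, 8 of them belong to origin licensing and firing, 12 to the helicase, 20 to polymerases, clamp and fork, and 5 to nucleotide supply.

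RNA came from 3 fractions of mouse retinal cells sorted by GFP, all on a C57BL/6J-129/Ola background, with 3 replicates each. The first 2 fractions were the GFP-positive cells (rhoGFP-positive) and the GFP-negative cells (rhoGFP-negative) of rhoEGFP pups at postnatal day 4, a line named for the rod pigment rhodopsin. The third fraction was the GFP-positive cells (nestinGFP-positive) of pNestin-GFP pups at postnatal day 0; nestin is a filament protein of neural progenitors. Retinae of 6 to 8 mice were pooled for a replicate, so no value belongs to 1 animal, and the nestinGFP-positive fraction differs from the other fractions in line, age and sorted population together. Values are log2 RMA signals, and a level is comparable between arrays for a gene but not between genes. A gene was called when its limma adjusted p was below 0.05 and its log2 difference was at least 1 (2-fold).

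Before S phase, the origin recognition complex, Cdc6 and Cdt1 load the Mcm2-7 helicase ring onto DNA, and geminin (Gmnn) restrains Cdt1 so that origins are licensed once per cycle. The Cdc7-Dbf4 kinase then lets Cdc45 and the GINS complex join the ring, and DNA polymerases alpha, delta and epsilon copy the strands behind it with the sliding clamp PCNA and its loader RFC. In many cell types the genes for these proteins are transcribed under E2F factors as cells commit to S phase. In the newborn mouse retina, progenitors still divide, while rods leave the cell cycle before they make rhodopsin.

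The rhoGFP-positive fraction differed from the other fractions as its label names it in the rod and progenitor markers. Between rhoGFP-negative and nestinGFP-positive cells, 2 of 14 rod markers were called higher and 0 of 9 progenitor markers were called. The median differences there were 0.60 and -0.81. In the rhoGFP-positive fraction, 14 of 14 rod markers were called higher than in the nestinGFP-positive fraction and 13 of 14 higher than in the rhoGFP-negative fraction, while 9 of 9 progenitor markers were called lower in both comparisons. Summed linear signals of the rod markers ran from 71676 to 78295 in rhoGFP-positive, from 14132.5 to 20016 in rhoGFP-negative and from 7834 to 12889 in nestinGFP-positive arrays. For the progenitor markers the sums ran from 4715 to 8005, from 17085 to 28031 and from 30333 to 33149 in the same order. Amacrine markers moved with the progenitor markers (6 of 6 called lower in both comparisons, sums of 668 to 1602, 3011 to 7831 and 9115 to 12291), and 0 of 6 microglia markers were called by limma (3 at an unadjusted p below 0.05 against nestinGFP-positive and 0 against rhoGFP-negative cells, sums of 265 to 727, 286 to 386 and 209.8 to 287). Further lists held calls in part of their markers. Of the Müller glia markers 4 of 6 were called lower and 1 higher in rhoGFP-positive cells in both comparisons (sums of 1818 to 2623 in rhoGFP-positive, 5279.6 to 7397 in rhoGFP-negative and 6507 to 7593 in nestinGFP-positive arrays). Of the endothelial and mural markers 2 of 7, Kdr and Cldn5, were called lower in both (635 to 819, 2684 to 3785 and 2891 to 3728). Kdr made up most of these sums. The median difference of that list was 0.04 against nestinGFP-positive and 0.01 against rhoGFP-negative cells, so the list as a whole did not move. Cone markers were called higher in 5 of 7 genes against nestinGFP-positive and 2 of 7 against rhoGFP-negative cells (6689.8 to 12317, 4930.4 to 6871 and 2984 to 3802), and ganglion markers lower in 3 of 6 and 1 of 6 (532 to 625, 1221 to 1573 and 1912 to 3139). In both comparisons 1 of 3 astrocyte markers was called lower and 1 of 5 bipolar markers higher, and horizontal markers were called lower in 1 of 4 genes against nestinGFP-positive and 2 of 4 against rhoGFP-negative cells. On RMA's log2 scale no marker is at 0, and the table has no detection calls. The actin probe sets' 3'-minus-5' log2 difference, which rises as RNA is degraded, was 0.85 to 0.97 in rhoGFP-positive, 0.64 to 0.68 in rhoGFP-negative and 0.40 to 0.99 in nestinGFP-positive arrays. In such bulk samples, fewer cells of a type and less RNA per cell cannot be told apart, and the part of cell makeup and RNA quality in the results below was not tested.

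The replication genes stood highest in the P0 nestinGFP-positive cells, intermediate in the P4 rhoGFP-negative cells and lowest in the P4 rhoGFP-positive cells. The group means followed this order in 41 of 45 members (25.9% of all genes), the exceptions being Orc1, Orc2, Rpa1 and Rpa3. In 24 of 45 members the arrays followed it with no overlap between neighbouring groups, against 4.52% of all genes. The median member signal was 7.61 to 7.96 on the rhoGFP-positive arrays, 8.35 to 9.28 on the rhoGFP-negative arrays and 9.49 to 9.81 on the nestinGFP-positive arrays.

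**Figure D1:**
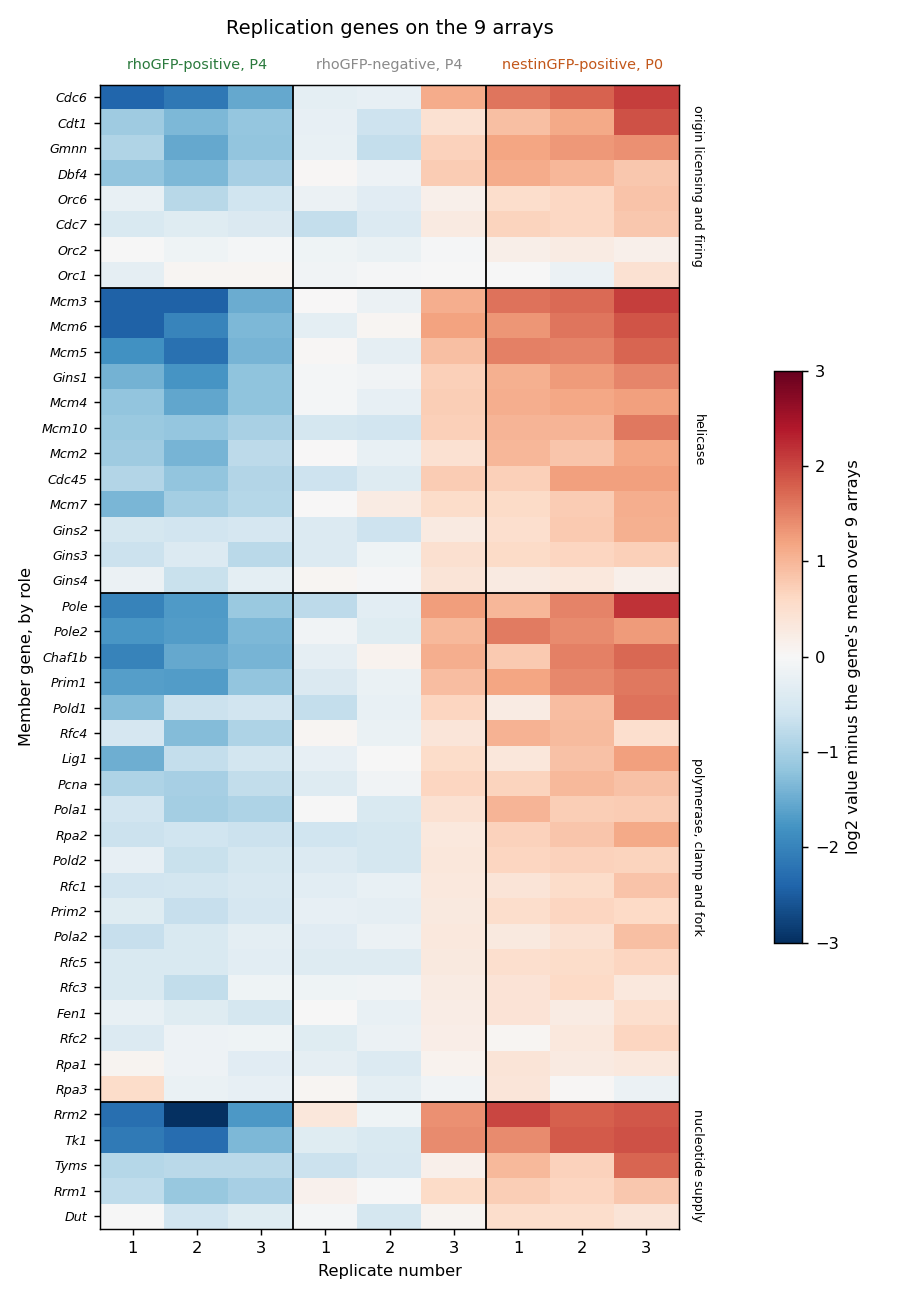
Log2 value of each of the 45 measured replication genes on each of the 9 arrays (columns, by group and replicate number), minus that gene's mean over the 9 arrays, with genes grouped by role and ordered by the rhoGFP-positive minus nestinGFP-positive difference. Most rows run from blue on the left to red on the right, rhoGFP-negative replicate 3 stands redder than the other rhoGFP-negative arrays, and rows such as Orc1, Orc2 and Rpa3 stay pale.

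Against the nestinGFP-positive cells, 35 of 45 members were called lower in the rhoGFP-positive cells and 0 higher. Over all genes, 10.5% were called lower in this comparison. The median member difference was -1.72 on the log2 scale (range -4.29 to -0.04), against 0.06 over all genes tested, and all 45 differences were below 0. In 43 members every rhoGFP-positive array lay below every nestinGFP-positive array, the exceptions being Orc1 and Rpa3; 23.4% of all genes showed such a separation. Of the 35 calls, 24 held under every alternative processing that was tried.

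Among the origin genes, 6 of 8 were called lower, with a median difference of -1.68. Cdc6, the loader ATPase that joins the origin recognition complex in G1, had signals of 4.28, 4.53 and 5.13 on the rhoGFP-positive arrays, 6.37, 6.42 and 7.79 on the rhoGFP-negative arrays and 8.27, 8.44 and 8.73 on the nestinGFP-positive arrays. The 3 groups did not overlap. Its rhoGFP-positive signal was 14.3-fold below that of the nestinGFP-positive cells (log2 difference -3.83 ± 0.36 SE, limma adjusted p = 3.13e-05).

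Cdt1, which brings the helicase to the origin, measured 8.71, 8.43 and 8.62 in rhoGFP-positive, 9.52, 9.15 and 10.24 in rhoGFP-negative and 10.66, 10.92 and 11.68 in nestinGFP-positive cells. It again separated all 3 groups (rhoGFP-positive minus nestinGFP-positive -2.50 ± 0.30). Its inhibitor geminin fell beside it (Gmnn, -2.49 ± 0.31). Of the kinase that fires licensed origins, the regulatory subunit Dbf4 was lower by -2.15 ± 0.22 and the catalytic subunit Cdc7 by -1.11 ± 0.21. A dimmer Cdc7 probe set gave -0.46, and the Cdc7 call was lost under 3 of 15 alternatives that changed the data or the fit. Orc6 was lower by -1.21 ± 0.18.

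Orc1 and Orc2, subunits of the origin recognition complex, were not called. Orc1 measured 6.12, 6.45 and 6.44 in rhoGFP-positive, 6.28, 6.36 and 6.37 in rhoGFP-negative and 6.37, 6.21 and 6.83 in nestinGFP-positive cells, so the 3 groups overlapped (-0.13 ± 0.16, limma adjusted p = 0.554). A second, dimmer Orc1 probe set gave -0.69. Orc2 measured 8.02, 7.92 and 7.97 in rhoGFP-positive, 7.91, 7.83 and 7.99 in rhoGFP-negative and 8.20, 8.28 and 8.18 in nestinGFP-positive cells. Its nestinGFP-positive arrays lay above the others by little (-0.25 ± 0.09, limma adjusted p = 0.06). The remaining subunits Orc3, Orc4 and Orc5, named here after their values were seen, differed by -0.14 ± 0.12, 0.04 ± 0.14 and -0.23 ± 0.10 and were not called either.

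The helicase held 11 of 12 members called lower, with a median difference of -2.18. Mcm3, a subunit of the ring, measured 6.08, 6.06 and 7.01 in rhoGFP-positive, 8.52, 8.33 and 9.59 in rhoGFP-negative and 10.12, 10.20 and 10.58 in nestinGFP-positive cells. Its difference of -3.91 ± 0.35 (15.1-fold, limma adjusted p = 2.17e-05) was the largest of the role. Mcm6 measured 7.25, 7.68 and 8.31 in rhoGFP-positive, 9.38, 9.72 and 10.86 in rhoGFP-negative and 10.99, 11.27 and 11.55 in nestinGFP-positive cells, a difference of -3.52 ± 0.38 with no overlap among the groups. The other ring subunits were also called, at -3.39 ± 0.29 for Mcm5, -2.48 ± 0.23 for Mcm4, -2.07 ± 0.20 for Mcm2 and -1.88 ± 0.19 for Mcm7. Mcm10, which acts as the helicase starts to unwind, differed by -2.29 ± 0.31, and Cdc45, which joins the ring to form the active helicase, by -2.05 ± 0.32.

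GINS, the complex that completes the active helicase, had 3 of its 4 subunits called. Gins1 was lower by -2.73 ± 0.23, Gins2 by -1.32 ± 0.22 and Gins3 by -1.26 ± 0.21. Gins4 measured 8.10, 7.61 and 7.96 in rhoGFP-positive, 8.32, 8.23 and 8.65 in rhoGFP-negative and 8.54, 8.58 and 8.43 in nestinGFP-positive cells. Its rhoGFP-positive arrays were the lowest, but the difference of -0.62 ± 0.15 (limma adjusted p = 0.0104) stayed under the 2-fold minimum. Whether the GINS subunits differed from each other was not tested.

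Among polymerases, clamp and fork proteins 14 of 20 were called lower, with a median of -1.33. Pole, the catalytic subunit of the leading-strand polymerase epsilon, measured 5.72, 6.04 and 6.60 in rhoGFP-positive, 6.93, 7.41 and 8.98 in rhoGFP-negative and 8.73, 9.22 and 9.90 in nestinGFP-positive cells. The rhoGFP-positive arrays stood apart (-3.16 ± 0.49, 8.97-fold), while the highest rhoGFP-negative array lay inside the nestinGFP-positive range. Its second subunit Pole2 measured 5.61, 5.68 and 6.01 in rhoGFP-positive, 7.23, 6.98 and 8.33 in rhoGFP-negative and 8.91, 8.77 and 8.63 in nestinGFP-positive cells, with no overlap (-3.01 ± 0.30). Chaf1b, a subunit of the chromatin assembly factor that places histones on new DNA, differed by -2.98 ± 0.35.

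Both primase subunits, which lay down the RNA start of each strand, were called: the catalytic Prim1 at -2.92 ± 0.31 and the large subunit Prim2 at -1.12 ± 0.16. Polymerase alpha, which extends the primer, was lower in its catalytic subunit Pola1 (-1.68 ± 0.22) and in Pola2 (-1.04 ± 0.21). Dimmer probe sets gave -0.73 and 0.14 for Prim2 and -0.57 and -0.37 for Pola2. The calls of Prim2 and Pola2 were lost under 3 and 6 of the 15 alternatives that changed the data or the fit. Of the lagging-strand polymerase delta, Pold1 was lower by -1.78 ± 0.40 and Pold2 by -1.15 ± 0.21. The clamp gene Pcna differed by -1.72 ± 0.23 and the ligase Lig1, which joins lagging-strand fragments, by -1.72 ± 0.30.

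The clamp loader RFC and the single-strand binding protein RPA were called in part of their subunits. Rfc4 (-1.74 ± 0.23) and Rfc1 (-1.14 ± 0.18) were called lower. Dimmer Rfc1 probe sets gave -0.76 and -0.05, and its call was lost under 3 of 15 alternatives that changed the data or the fit. Rfc5 measured 8.52, 8.52 and 8.66 in rhoGFP-positive, 8.58, 8.59 and 9.28 in rhoGFP-negative and 9.49, 9.53 and 9.62 in nestinGFP-positive cells. It lay just under the 2-fold minimum (-0.98 ± 0.18, limma adjusted p = 0.00167), with its nestinGFP-positive arrays above all others. Rfc3 measured 7.53, 7.26 and 7.86 in rhoGFP-positive, 7.88, 7.88 and 8.23 in rhoGFP-negative and 8.41, 8.60 and 8.31 in nestinGFP-positive cells (-0.89 ± 0.17). Rfc2 measured 9.55, 9.80 and 9.84 in rhoGFP-positive, 9.58, 9.78 and 10.16 in rhoGFP-negative and 10.02, 10.27 and 10.60 in nestinGFP-positive cells (-0.56 ± 0.18). For both, the rhoGFP-positive and nestinGFP-positive arrays did not overlap, although the fold was below the minimum.

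Of the 3 RPA subunits, Rpa2 was called lower (-1.50 ± 0.23). Rpa1, the large DNA-binding subunit, measured 10.43, 10.20 and 10.02 in rhoGFP-positive, 10.08, 9.93 and 10.45 in rhoGFP-negative and 10.73, 10.63 and 10.66 in nestinGFP-positive cells (-0.46 ± 0.15, limma adjusted p = 0.0392). Rpa3, the small subunit, measured 9.75, 9.01 and 8.95 in rhoGFP-positive, 9.27, 8.91 and 9.09 in rhoGFP-negative and 9.56, 9.25 and 9.02 in nestinGFP-positive cells. Rpa3 overlapped fully among the groups and had the smallest difference of the 45 members (-0.04 ± 0.22, limma adjusted p = 0.907). The flap endonuclease Fen1, which trims lagging-strand fragments, measured 9.89, 9.74 and 9.58 in rhoGFP-positive, 10.09, 9.90 and 10.33 in rhoGFP-negative and 10.52, 10.37 and 10.63 in nestinGFP-positive cells. It was separated but under the minimum on its brighter probe set (-0.77 ± 0.14), and a dimmer probe set gave -1.41.

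In nucleotide supply 4 of 5 members were called lower, with a median of -1.97. Rrm2, the small subunit of ribonucleotide reductase that is made in S phase, measured 6.74, 5.77 and 7.27 in rhoGFP-positive, 9.34, 8.89 and 10.37 in rhoGFP-negative and 11.00, 10.79 and 10.87 in nestinGFP-positive cells. This was the largest difference among the 45 members (-4.29 ± 0.41, 19.6-fold, limma adjusted p = 3.49e-05), and dimmer Rrm2 probe sets gave -3.06 and -4.01. The large subunit Rrm1 differed by -1.69 ± 0.16. Rrm2b, a small subunit induced by p53 and used outside S phase, is no member and was named after its values were seen; it differed by 0.28 ± 0.17 and was not called.

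Tk1, the cytosolic thymidine kinase, measured 5.74, 5.59 and 6.51 in rhoGFP-positive, 7.50, 7.42 and 9.28 in rhoGFP-negative and 9.28, 9.70 and 9.79 in nestinGFP-positive cells (-3.64 ± 0.45, 12.5-fold). Tyms, thymidylate synthase, differed by -1.97 ± 0.27, but its annotated probe sets were dim, with group means of 4.55, 5.05 and 6.52 on the probe set used, and their mean gave no call. Dut, which removes dUTP, measured 10.04, 9.49 and 9.69 in rhoGFP-positive, 10.01, 9.54 and 10.15 in rhoGFP-negative and 10.60, 10.58 and 10.44 in nestinGFP-positive cells. Its nestinGFP-positive arrays lay above the others, by less than the minimum (-0.80 ± 0.18, limma adjusted p = 0.00681).

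**Figure D2:**
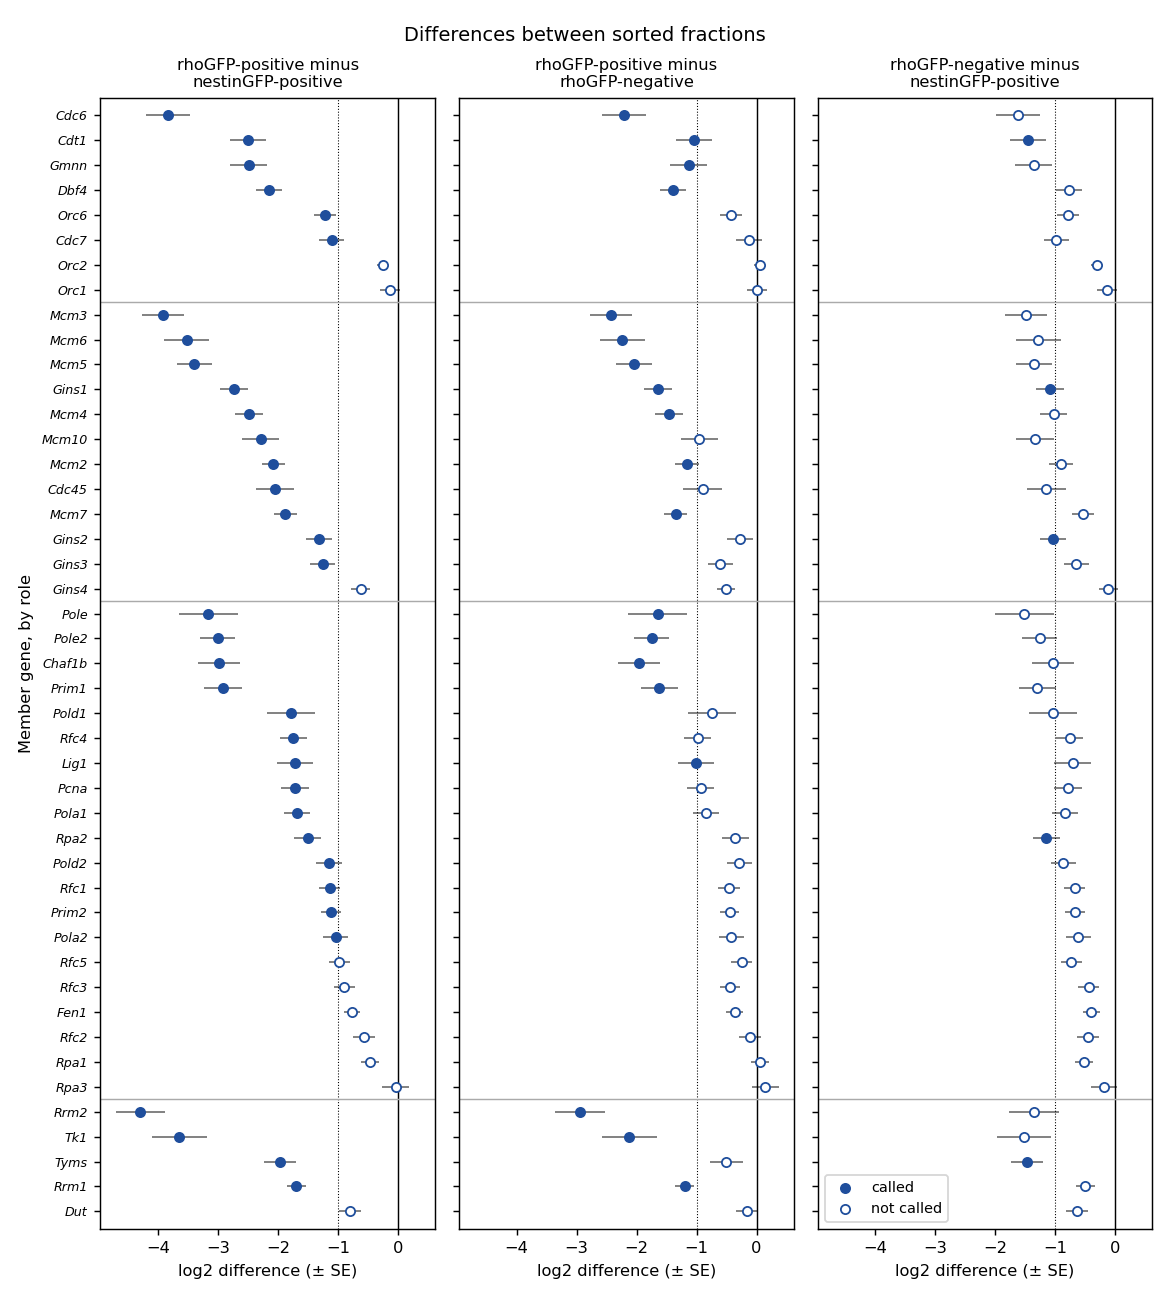
Log2 difference of each of the 45 replication genes with its standard error in the 3 comparisons (3 arrays a group), with filled points for called genes, open points for genes not called, a solid line at 0 and a dotted line at -1. Called members number 35, 19 and 5 from left to right, and the genes nearest 0 in the left panel are Rpa3 and Orc1.

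At P4, the rhoGFP-positive cells again had less replication-gene signal than the rhoGFP-negative cells. Here 19 of 45 members were called lower and 0 higher, where 7.32% of all genes were called lower. The median member difference was -0.90 (range -2.94 to 0.15), against 0.01 over all genes, and 30 members did not overlap between the fractions, against 20.3% of all genes. By role, 4 of 8 origin genes, 7 of 12 helicase genes, 5 of 20 polymerase, clamp and fork genes and 3 of 5 nucleotide genes were called.

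The largest differences between the P4 fractions were those of Rrm2 (-2.94 ± 0.41), Mcm3 (-2.42 ± 0.35), Mcm6 (-2.24 ± 0.38) and Cdc6 (-2.21 ± 0.36). Rrm2 had a limma adjusted p of 0.000585 and was 7.67-fold lower in the rhoGFP-positive cells. Tk1 differed by -2.12 ± 0.45 and Mcm5 by -2.04 ± 0.29. Calls that held under every alternative processing were those of Cdc6, Mcm3, Mcm4, Mcm5, Mcm6, Mcm7, Prim1, Rrm2 and Tk1, 9 of the 19. The calls of Cdt1 (-1.05 ± 0.30) and Lig1 (-1.01 ± 0.30), both near the minimum, were lost under 7 each of the 15 alternatives that changed the data or the fit.

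Some genes that separated rhoGFP-positive from nestinGFP-positive cells had small mean differences between the P4 fractions. Cdc7 differed by -0.13 ± 0.21 between the P4 fractions, Pold2 by -0.28 ± 0.21, Gins2 by -0.28 ± 0.22 and Rpa2 by -0.36 ± 0.23, none of them called. Dimmer probe sets gave -0.01 for Cdc7, -0.79 for Gins2 and -0.38 for Rpa2. Within replicate number 3 the differences of Cdc7, Pold2, Gins2 and Rpa2 were -0.70, -0.86, -0.76 and -0.96. Within numbers 1 and 2 they lay between -0.13 and 0.28. Cdc7 measured 8.12, 8.20 and 8.14 in rhoGFP-positive and 7.84, 8.16 and 8.85 in rhoGFP-negative cells, against 9.22, 9.19 and 9.38 in nestinGFP-positive cells. The comparisons share their rhoGFP-positive arrays, and whether these genes differed between the comparisons was not tested.

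The rhoGFP-negative P4 cells lay below the nestinGFP-positive P0 cells in the mean of all 45 members, and the test called few of them. With 9 arrays in 1 fit, 5 of 45 members were called lower (Cdt1, Gins1, Gins2, Rpa2 and Tyms) and 0 higher, where 0.605% of all genes were called lower. The median member difference was -0.86 (range -1.62 to -0.11), against 0.03 over all genes. In 34 members every rhoGFP-negative array lay below every nestinGFP-positive array, against 8.79% of all genes, and 42 members had an unadjusted p below 0.05, as did 3285 of the 18193 genes. Deviations of same-numbered arrays of these groups correlated at 0.54 for number 1, 0.15 for number 2 and 0.23 for number 3. The unlike-numbered rhoGFP-negative replicate 2 and nestinGFP-positive replicate 3 correlated at 0.22, so a pairing is clear only for number 1. With the replicate number as a block 20 members were called, against 1.76% of all genes. Without rhoGFP-negative replicate 3 the count was 25, against 2.28% of all genes. It fell to 0 without any 1 of rhoGFP-negative replicates 1 and 2 and nestinGFP-positive replicates 2 and 3, and stayed at 5 without nestinGFP-positive replicate 1.

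Tyms had a limma adjusted p of 0.0309 in this comparison, with signals of 4.73, 4.89 and 5.53 in rhoGFP-negative and 6.35, 6.07 and 7.13 in nestinGFP-positive cells (-1.47 ± 0.27). Its dimmer probe sets gave -0.27, -0.26 and 0.24. The calls of Tyms, Rpa2 and Gins1 were lost under 6 of 14, 5 of 15 and 7 of 15 alternatives that changed the data or the fit. Rpa2 measured 8.49, 8.56 and 9.41 against 9.77, 9.91 and 10.23 (-1.15 ± 0.23). For Gins1 the values were 8.76, 8.73 and 9.55 against 9.90, 10.12 and 10.30 (-1.09 ± 0.23). In each of these genes the third rhoGFP-negative array was the highest of its group and still lay below the nestinGFP-positive arrays. Cdc6 had the largest mean difference (-1.62 ± 0.36) but missed the threshold (limma adjusted p = 0.0547).

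One array carried much of the spread. RhoGFP-negative replicate 3 was the highest array of its group in 44 of 45 members (36.6% of all genes). It exceeded the mean of replicates 1 and 2 by a median of 0.79 on the log2 scale, against 0.03 over all genes, and by at least 1 in 14 members, against 1.24% of all genes. The excess was 1.82 for Tk1, 1.80 for Pole, 1.39 for Cdc6 and 1.32 for Mcm6, but 0.01 for Rpa3, 0.05 for Orc1 and 0.12 for Orc2. In 11 of 45 members this array reached the lowest nestinGFP-positive array or more, which replicate 1 did in 2 members and replicate 2 in 1. Over all genes these shares were 82.9%, 68.3% and 77.4% for replicates 3, 1 and 2, far above those of the members. The median SD of the members within the rhoGFP-negative group was 0.46, against 0.21 in the rhoGFP-positive and 0.20 in the nestinGFP-positive group, where the median gene had 0.15, 0.15 and 0.17.

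Other lists moved with this array. Summed linear signals of the mitosis markers were 3885, 4198 and 14135 on the 3 rhoGFP-negative arrays, beside 13005 to 14874 on the nestinGFP-positive arrays and 1594 to 3453 on the rhoGFP-positive arrays. The progenitor sums were 17085, 18478 and 28031 and the rod sums 20016, 18512 and 14132.5 on rhoGFP-negative replicates 1, 2 and 3. Cone sums (4930.4, 6221 and 6871) and endothelial and mural sums (3061, 2684 and 3785) were also highest on replicate 3. Ganglion, horizontal, bipolar, astrocyte and microglia sums were lowest on that array, and amacrine and Müller glia sums were neither. Among the rhoGFP-positive arrays, replicate 3 had the highest median member signal (7.96 beside 7.81 and 7.61), and its sums were also the highest of its group for progenitor markers (8005 beside 4715 and 5155), mitosis markers (3453 beside 1594 and 1918), microglia markers (727 beside 265 and 340), cone markers (12317 beside 6689.8 and 10968) and amacrine markers (1602 beside 668 and 1487). The endothelial and mural sum of rhoGFP-positive replicate 3 was also the highest of its group (819 beside 769 and 635). The part of cell makeup in these excesses was not tested.

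Within replicate numbers the direction was kept on all 3. Between the P4 fractions the median member difference was -0.57 for number 1, -0.62 for number 2 and -1.29 for number 3, with 39, 38 and 44 members below 0. Between rhoGFP-negative and nestinGFP-positive cells it was -1.03, -1.15 and -0.50, with 45, 44 and 43 members below 0. In 36 of 45 members rhoGFP-positive lay below rhoGFP-negative within every number (30.3% of all genes), and in 42 of 45 rhoGFP-negative lay below nestinGFP-positive within every number (19.8% of all genes). Number 1 also stood apart in the 18S ribosomal control probe sets, whose mean log2 signal was 12.13 to 13.62 there and 9.65 to 10.44 on the other arrays.

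**Figure D3:**
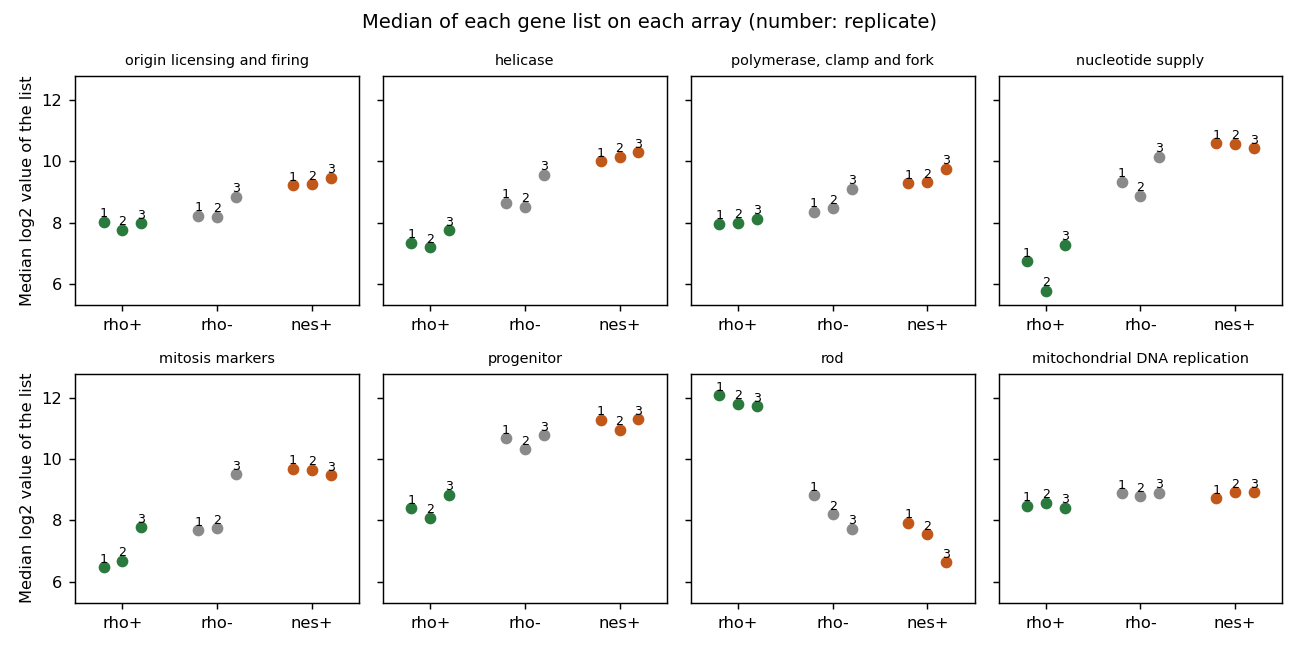
Median log2 value of the genes of each list on each array, for the 4 roles of replication genes (top row) and for mitosis, progenitor, rod and mitochondrial DNA replication lists (bottom row); rho+ is rhoGFP-positive, rho- rhoGFP-negative and nes+ nestinGFP-positive, and digits are replicate numbers. RhoGFP-negative replicate 3 stands above replicates 1 and 2 in the 4 roles and in the mitosis markers (9.50 beside 7.68 and 7.74), and the mitochondrial list stays between 8.41 and 8.92 on all arrays.

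Genes next to the members in the pathway were read from lists that hold no member. Of 36 other replication factors, 19 were called lower in rhoGFP-positive than in nestinGFP-positive cells and 5 lower than in rhoGFP-negative cells, with medians of -1.11 and -0.46. The largest differences from the nestinGFP-positive cells were those of Esco2, the S-phase cohesin acetyltransferase (-4.04 ± 0.39), Uhrf1, which brings the maintenance methyltransferase to new DNA (-3.90 ± 0.42), and Top2a, a topoisomerase of dividing cells (-3.54 ± 0.51). Among 10 S-phase kinase and cyclin genes 9 were called lower against nestinGFP-positive and 5 against rhoGFP-negative cells. They were led by the mitotic kinase Cdk1 (-3.62 ± 0.53), the checkpoint kinase Chek1 (-2.83 ± 0.27) and Fbxo5, an inhibitor of the anaphase-promoting complex (-2.31 ± 0.32).

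The E2F and pocket protein list was split. Of 13 genes, 6 were called lower in rhoGFP-positive than in nestinGFP-positive cells and 5 lower than in rhoGFP-negative cells, and 0 were called higher. E2f7 and E2f8, repressors that are themselves made late in S phase, differed from the nestinGFP-positive cells by -3.75 ± 0.48 and -3.70 ± 0.34, and the activator E2f1 by -2.66 ± 0.34. Named after their values were seen, E2f3 (0.04 ± 0.19), E2f4 (0.11 ± 0.17), E2f5 (0.04 ± 0.11) and the retinoblastoma gene Rb1 (0.52 ± 0.27) were not called.

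Lists of DNA metabolism outside nuclear S phase held few called genes, as did all genes tested. Over all genes, 10.5% were called lower against nestinGFP-positive and 7.32% against rhoGFP-negative cells. The shares were 10.5% and 5.26% for the other nucleotide supply list and 8.33% in both for the repair list. These lists therefore do not stand apart from all genes. Between rhoGFP-negative and nestinGFP-positive cells 0.605% of all genes were called lower. Among 9 mitochondrial DNA replication genes 0 were called lower in any comparison, and 1 was called higher against nestinGFP-positive cells, the mitochondrial topoisomerase Top1mt (1.09 ± 0.13, limma adjusted p = 0.000154). At an unadjusted limma p below 0.05 there were 4 genes against nestinGFP-positive and 4 against rhoGFP-negative cells, in either direction, and 1 between rhoGFP-negative and nestinGFP-positive cells. The medians of this list were -0.17 against nestinGFP-positive and -0.07 against rhoGFP-negative cells. Of 12 base excision and non-replicative repair genes 1 was called lower, Ung, the uracil-DNA glycosylase, at -3.38 ± 0.26 against nestinGFP-positive and -1.73 ± 0.26 against rhoGFP-negative cells. Ung was also the 1 gene of this list called lower in rhoGFP-negative than in nestinGFP-positive cells (-1.64 ± 0.26). Of 19 other nucleotide supply genes 2 were called against nestinGFP-positive cells, the deoxycytidylate deaminase Dctd (-2.02 ± 0.12) and the CTP synthase Ctps (-1.20 ± 0.12). The median of that list was -0.55, with 17 of 19 genes below 0 and 11 at an unadjusted p below 0.05. Mitosis markers were called lower in 12 of 13 genes against nestinGFP-positive and 8 of 13 against rhoGFP-negative cells, with Aurkb (-4.12 ± 0.57), Bub1 (-3.67 ± 0.51) and Mki67 (-3.32 ± 0.49) at the largest differences from the nestinGFP-positive cells.

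**Figure D4:**
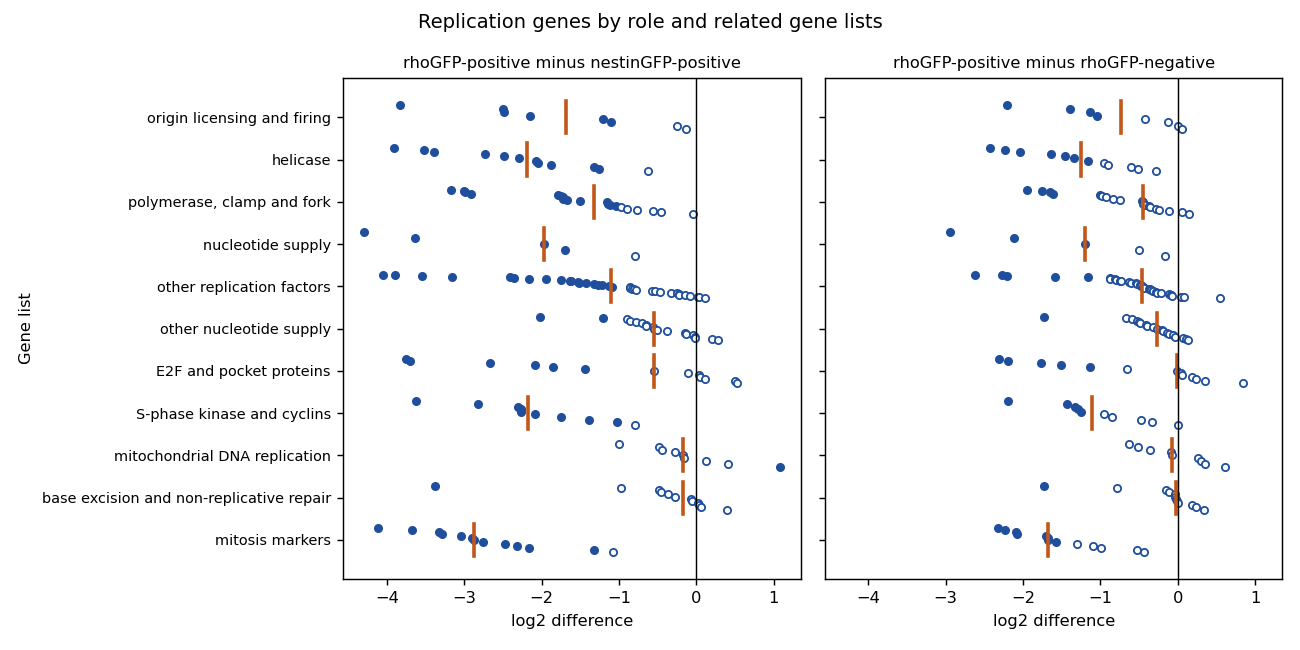
Log2 differences of the genes of each list in both comparisons of the rhoGFP-positive cells, with filled points for called genes, open points for genes not called and a bar at each list's median. Medians against nestinGFP-positive cells run from -2.18 for the helicase to -1.33 for polymerases, clamp and fork among the replication genes, and lie at -0.17 for the mitochondrial and the repair lists.

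Promoters were read because the members moved together, and E2F factors are known regulators of several of them. RefSeq promoter windows (GRCm38.p6, 250 bases before to 50 after the start of a transcript) were matched by symbol for 37 of the 45 measured members. Gmnn, Mcm4, Gins1, Gins2, Gins4, Rfc2, Prim2 and Pole had none in the table used. Windows were searched on both strands for the E2F-type words TTTCCCGC, TTTCGCGC, TTTGCCGC and TTTGGCGC, of which 13 of 37 members held at least 1 (35.1%), against 3.81% of the 14452 tested genes with a window. Counted by window, 13 of the members' 44 windows held a word (29.5%), against 2.26% of all 32851 windows. That wider background includes genes not tested here, and by gene a word was in 2.6% of its 27025 genes. The 13 members were Orc1, Cdc6, Cdt1, Mcm3, Mcm5, Mcm6, Mcm7, Gins3, Rfc3, Pola1, Pold1, Pole2 and Lig1. The shorter word CCAAT, searched the same way, was in the windows of 22 of 37 members (59.5%), against 42% of the tested genes with a window.

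The median difference between rhoGFP-positive and nestinGFP-positive cells was -1.88 for the 13 with a word (11 called lower) and -1.60 for the 24 without (18 called lower), a description with no test. The windows of 5 members follow, each 5′ to 3′ on the strand of its gene, with E2F-type words in capitals, and matches on the reverse strand are also in capitals. Mcm3, Mcm6 and Cdc6 are shown as members with a word and large differences. Orc1 is shown as a member with a word and a difference near 0 on its brighter probe set, while its dimmer probe set gave -0.69. Rrm2 is shown as the member with the largest difference and no such word.
Mcm3: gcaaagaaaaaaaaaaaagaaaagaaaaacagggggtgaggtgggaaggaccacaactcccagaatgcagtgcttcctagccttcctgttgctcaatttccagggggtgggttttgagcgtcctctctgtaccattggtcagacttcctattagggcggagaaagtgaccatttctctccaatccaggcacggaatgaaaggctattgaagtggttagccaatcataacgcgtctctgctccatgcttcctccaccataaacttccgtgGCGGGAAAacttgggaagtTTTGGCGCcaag
Mcm6: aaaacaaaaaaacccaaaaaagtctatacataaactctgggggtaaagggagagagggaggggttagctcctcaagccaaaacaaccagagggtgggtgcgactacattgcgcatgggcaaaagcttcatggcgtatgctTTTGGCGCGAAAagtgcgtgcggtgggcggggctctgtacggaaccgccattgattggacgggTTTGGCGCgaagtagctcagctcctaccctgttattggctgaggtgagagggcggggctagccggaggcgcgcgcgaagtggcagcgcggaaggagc
Cdc6: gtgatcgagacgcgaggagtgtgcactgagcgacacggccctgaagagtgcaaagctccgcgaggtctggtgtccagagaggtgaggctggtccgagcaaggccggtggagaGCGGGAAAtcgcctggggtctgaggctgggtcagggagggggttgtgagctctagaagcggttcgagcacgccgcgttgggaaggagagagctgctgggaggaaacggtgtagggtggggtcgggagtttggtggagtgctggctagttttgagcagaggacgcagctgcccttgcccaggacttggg
Orc1: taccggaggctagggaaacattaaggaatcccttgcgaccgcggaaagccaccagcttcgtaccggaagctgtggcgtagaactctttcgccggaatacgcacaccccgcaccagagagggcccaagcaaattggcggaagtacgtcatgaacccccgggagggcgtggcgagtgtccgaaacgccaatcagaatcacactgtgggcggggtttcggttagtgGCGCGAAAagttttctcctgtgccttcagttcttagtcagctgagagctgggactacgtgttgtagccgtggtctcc
Rrm2: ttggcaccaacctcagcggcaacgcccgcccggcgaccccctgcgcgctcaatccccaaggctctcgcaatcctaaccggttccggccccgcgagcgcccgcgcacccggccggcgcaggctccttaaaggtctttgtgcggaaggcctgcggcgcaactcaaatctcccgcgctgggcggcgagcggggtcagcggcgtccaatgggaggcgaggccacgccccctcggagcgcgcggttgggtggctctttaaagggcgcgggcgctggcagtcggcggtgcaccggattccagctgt
The windows lie at chr1:20820263-20820562 on the minus strand (Mcm3), chr1:128359656-128359955 on the minus strand (Mcm6), chr11:98907901-98908200 on the plus strand (Cdc6), chr4:108579204-108579503 on the plus strand (Orc1) and chr12:24708004-24708303 on the plus strand (Rrm2). Counted from the start of the transcript, with its first base as 1, the leftmost bases of the words were at 20 and 39 in Mcm3, at -110, -106 and -47 in Mcm6, at -138 in Cdc6 and at -27 in Orc1. The first 2 words of Mcm6 overlap on opposite strands. A word is a match of letters, and its absence says only that these letters are not in the window.

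Probe sets of the same member mostly gave the same direction. The 45 members had 97 annotated probe sets, and 34 members had more than 1. In the comparison of rhoGFP-positive with nestinGFP-positive cells the 2 brightest probe sets were both below 0 in 32 of these 34 members and lay within 0.5 of each other in 18. They were more than 1 apart in 8, among them Chaf1b (-2.98 and 0.08) and Cdc45 (-2.05 and -0.29). The 4 Mcm7 probe sets ran from -2.27 to -1.88. Means over all probe sets of a gene called 29 members in place of 35 in that comparison and 13 in place of 19 between the P4 fractions.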

How the data were processed

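Total RNA of 9 sorted pools was amplified from 200 ng and hybridised to Affymetrix mouse arrays. The deposited values are log2 signals, and the submitters' processing notes name RMA as the authors' method, without a version. RMA subtracts background, applies quantile normalization and summarises each probe set, and low signals are compressed by it. Scan batches were not in the labels. Of 45101 probe sets 64 were controls; 34945 of the others had 1 gene symbol, 932 several and 9160 none in the annotation. Probe sets with 1 symbol gave 18193 genes.

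Differences were tested with limma 3.58.1 (R 4.3.3; lmFit, eBayes, two-sided) in a fit of all 9 arrays with 3 group means and Benjamini-Hochberg adjustment over 18193 genes. Errors are limma SEs unless SD is written. Precision is limited by 3 arrays a group. On simulated data for the P4 comparison (18193 genes, 200 changed) the fit recovered 94% to 100% of changes of 1.5 log2 units and 98% to 100% of changes of 2. The changed genes were drawn from all genes, with independent noise of equal spread in each group. The members had a wider rhoGFP-negative spread (median SD 0.46, against 0.15 over all genes), so these rates do not describe them. Deviations of same-numbered arrays had correlations of 0.62, 0.45 and 0.45 for the P4 fractions, 0.54, 0.15 and 0.23 between rhoGFP-negative and nestinGFP-positive cells, and 0.52, -0.01 and 0.25 between rhoGFP-positive and nestinGFP-positive cells. Unlike-numbered arrays reached at most 0.07, 0.22 and 0.39 in the same order of comparisons. Any pairing in the first 2 comparisons rests on these values, not on the labels, which call the replicates biological. Between rhoGFP-negative and nestinGFP-positive cells it is clear only for number 1.

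Members and lists were chosen with earlier results of these data known. All members may be named; per-array values are given for the 2 largest and the smallest difference from nestinGFP-positive cells in each role and for members not called there, and in further sentences for a few members chosen after their values were seen. Other lists give up to 3 largest calls and any called higher. Alternatives changed the scaling, the choice of probe sets, the filter on dim genes, the arrays fitted, the block, the eBayes settings and the thresholds, and left out each replicate.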

Additional observations from a re-analysis of the deposited data

How the results depend on the processing

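The members called lower numbered 35 for rhoGFP-positive against nestinGFP-positive cells and 27 to 42 under the alternatives, and 19 between the P4 fractions and 13 to 23 under them; leaving out 1 replicate gave 34 to 37 and 14 to 22. For rhoGFP-negative against nestinGFP-positive cells the count of 5 became 9 with each array moved to a common median, 8 with quantile normalization again, 8 with cyclic loess, 8 when genes under the 40th percentile of signal were left out, 0 with only the 6 arrays compared, 0 at an adjusted p below 0.01 and 20 with the replicate block, and ran from 0 to 25 without 1 replicate; the cause was not tested. The block changed no count of members called in the other comparisons. No member changed sign, under any alternative run, in a comparison in which it was called.

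A common median moved the median of all genes to 0.42, 0.25 and 0.15 for rhoGFP-positive against nestinGFP-positive, rhoGFP-positive against rhoGFP-negative and rhoGFP-negative against nestinGFP-positive cells. The member medians became -1.36, -0.66 and -0.75, from -1.72, -0.90 and -0.86. Relative to the median of all genes they stayed at -1.78, -0.91 and -0.90. A constant shift of each array cannot change that distance, so it is no check. The common median also turned the split of all genes called lower and higher from 1917 and 921 to 1352 and 1699, from 1332 and 656 to 998 and 1018, and from 110 and 70 to 118 and 123. Uncalled members near 0 changed sign under some alternatives, Rpa3 under 5 and Orc1 under 3 in the comparison of rhoGFP-positive with nestinGFP-positive cells. Signals near the lower end, as for Tyms and Cdc6, have folds that RMA may understate.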
